A study of Homo sapiens with 17 samples.

Results

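The genes described here are the classical axon guidance ligands and their receptors. They were chosen by family name: the semaphorins with their plexin and neuropilin receptors, the Slits with the Robo receptors, the netrins with DCC, neogenin and the UNC5 receptors, and the ephrins with the Eph receptors. This gave 72 protein-coding genes, 37 ligands and 35 receptors, of 60662 genes measured in every library. RNA-seq was read in CHP-134, a human neuroblastoma cell line with amplified MYCN, and in xenograft tumors grown from it. The culture arm has 4 groups of 2 libraries each: cells kept with ATRA, the all-trans form of retinoic acid, at 2 µM and harvested on day 1, 3 or 6, and cells given DMSO, the solvent. Tumors grew under the skin of adult female athymic nude mice, which lack T cells, from CHP-134 cells labelled with luciferase. In this arm, 4 tumors came from mice given 13-cis retinoic acid (RA) by oral gavage, 25 mg/kg given 2 times a day, and 5 were control tumors, untreated by the labels and vehicle-treated by the study's text. Each group therefore stems from 1 cell line, and the study describes most cultured cells as dead after 6 days of ATRA, so the 6-day libraries hold the RNA of cells that remained.

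Growing axons find their targets by reading attractive and repulsive proteins on other cells or in the surrounding matrix, and the guidance families supply most of these cues and the receptors that read them. Slits repel axons through Robo receptors, netrins attract through DCC and repel through UNC5 receptors, semaphorins act through plexins (the secreted class 3 mostly with a neuropilin as co-receptor), and ephrins and Eph receptors signal between touching cells in both directions. Retinoic acid is a vitamin A derivative that acts through nuclear receptors and is known to drive neurite outgrowth in many neuroblastoma lines, which derive from the sympathetic nervous system, where several of these families guide neural crest migration and axons.

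The libraries held 31607051 to 39422897 counts in cells and 17266558 to 29078889 counts in tumors. Levels are given as CPM, counts scaled to a common library size and composition, and, where genes are set beside each other, as CPM per kb of exon. A gene was called higher or lower where edgeR's quasi-likelihood test gave an FDR (a p-value adjusted over all genes tested) under 0.05 and a change of more than 2-fold. All 8 markers of the adrenergic neuroblastoma lineage were detected in every group, with sums of 2070 to 4060 CPM. Leukocyte markers summed to at most 0.977 CPM in cells and to 2.06 to 4.32 CPM in tumors. Fibroblast and mural cell markers summed to 35.5 to 53.3 CPM in RA tumors and to 32.5 to 126 CPM in control tumors. In cultured cells they summed to 65.3 to 67.8 CPM in DMSO and 77 to 79.9 CPM at 6 days, so this sum is not particular to tumors. The part of such cells in the tumor values was not tested. Within that list RGS5, a pericyte gene, was at 41.0 to 41.6 CPM at 6 days and 4.25 to 4.66 CPM in DMSO (log2 fold change 3.17), and at 6.39 to 13.5 CPM in RA tumors and 3.18 to 5.65 CPM in control tumors (log2 fold change 1.08, FDR 0.0378). Most of the list went the other way: 2 were higher and 4 lower of 8 tested at 6 days (median log2 fold change -0.897). Between RA and control tumors RGS5 was the only call of 7 tested, and the median was -0.791. Of the Schwann cell markers, 5 of 6 tested were higher in control tumors than in DMSO cells; SOX10, a defining marker, was at 0.89 to 2.2 CPM in control tumors and at 0 in every cell library. At 6 days 2 of 4 tested, CDH19 and FOXD3, were higher than in DMSO, at 0.801 to 1.02 CPM and 0.641 to 0.694 CPM, and 0 of 6 were called between RA and control tumors. The part of these cells in the guidance values was not tested. Among the 10 endothelial markers, the sum was 151 to 162 CPM at 6 days and 9.35 to 10.9 CPM in DMSO. CLDN5, a tight junction gene, held 144 to 155 CPM of the sum at 6 days, while TEK and EMCN were at 0 there and PECAM1 and KDR reached at most 0.198 and 0.0641 CPM. In control tumors the sum was 5.31 to 11.2 CPM, a range that takes in that of DMSO cells. Of 5 endothelial markers tested, 2 were higher and 1 lower in control tumors than in DMSO cells. PECAM1 was at 1.09 to 1.83 CPM in control tumors and at 0 in DMSO cells. EGFL7 was at 2.1 to 3.13 CPM in control tumors and 7.72 to 8.77 CPM in DMSO cells. The part of endothelial cells in the tumor values was not tested.

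The stretch of DNA just before the transcription start was read for a few members that moved early and kept their direction, to show what kind of promoter they carry. RefSeq windows (GRCh38.p14, from 250 bases before to 50 bases after the start) were found for 61 of the 72 genes, in 95 windows. No member window held a direct repeat of AGGTCA or GGTTCA, in these exact letters, with a spacer of 5 or 2 bases on either strand. Such repeats are a form of the retinoic acid response element, and 0.0342% of all 35116 windows held one. Other spellings of the element were not searched. At so low a share, finding none in 95 windows does not set the members apart from other genes. A single AGGTCA or GGTTCA, which is also a part of each such repeat, stood in 14 of the member windows (14.7%), against 20.9% of all windows. These counts describe the letters in the windows only. CpG dinucleotides, counted as an addition after the results were known, numbered 17 at the median in the 250 upstream bases of member windows, against 11 over all windows. The upstream bases of EPHA3 and SEMA6C, called higher at 3 and 6 days, and of SEMA3D and SLIT3, called lower at both times, are printed 5′ to 3′ with CpG dinucleotides in capitals.
EPHA3 (chr3:89107371-89107620, plus strand): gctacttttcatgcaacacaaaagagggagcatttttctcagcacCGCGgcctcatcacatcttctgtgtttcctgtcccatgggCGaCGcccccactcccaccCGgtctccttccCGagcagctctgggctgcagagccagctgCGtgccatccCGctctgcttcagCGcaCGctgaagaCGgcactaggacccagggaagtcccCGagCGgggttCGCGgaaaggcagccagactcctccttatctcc
SEMA6C (chr1:151146632-151146881, minus strand): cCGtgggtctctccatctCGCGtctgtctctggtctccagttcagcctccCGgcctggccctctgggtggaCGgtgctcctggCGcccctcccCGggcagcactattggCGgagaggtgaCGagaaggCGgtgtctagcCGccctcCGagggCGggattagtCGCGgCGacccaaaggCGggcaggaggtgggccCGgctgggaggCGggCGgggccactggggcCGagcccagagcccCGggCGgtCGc
SEMA3D (chr7:85187057-85187306, minus strand): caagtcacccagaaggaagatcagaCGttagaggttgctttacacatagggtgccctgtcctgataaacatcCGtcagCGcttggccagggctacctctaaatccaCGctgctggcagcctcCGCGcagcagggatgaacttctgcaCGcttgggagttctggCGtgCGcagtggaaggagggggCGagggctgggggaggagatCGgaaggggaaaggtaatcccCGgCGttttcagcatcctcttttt
SLIT3 (chr5:169301140-169301389, minus strand): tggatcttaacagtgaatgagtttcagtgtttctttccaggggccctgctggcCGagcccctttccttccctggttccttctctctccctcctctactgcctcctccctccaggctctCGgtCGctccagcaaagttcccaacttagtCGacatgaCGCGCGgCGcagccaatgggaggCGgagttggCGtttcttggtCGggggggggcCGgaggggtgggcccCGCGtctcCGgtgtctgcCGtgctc
The 4 stretches held 15, 24, 13 and 16 CpG dinucleotides in this order, so the pair that was higher and the pair that was lower both lay above the median of all windows.

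In culture the guidance genes moved in steps. After 1 day, 2 members were higher and 1 was lower of 67 tested; the background was 2.74% of the 20237 genes tested (1.95% higher and 0.791% lower). The count grew to 5 higher and 5 lower after 3 days (background 7.87%, with 5.45% higher and 2.43% lower), and to 26 higher and 11 lower after 6 days, which is 55.2% of the members tested, beside a background of 31.2% (18.8% higher and 12.3% lower). The median log2 fold change of the members at 6 days was 0.64, against 0.04 over all genes. Most of the movement came late: 21 members were higher and 9 lower between 3 and 6 days (background 21.1%, with 12.7% higher and 8.41% lower), and 5 were higher and 5 lower between 1 and 3 days (background 4.09%, with 2.87% higher and 1.22% lower). With the FDR alone and no fold threshold, the balance at 1 day was the other way, with 10 members higher and 20 lower (background 26.4%, with 13.1% higher and 13.3% lower). By the same rule 21 were higher and 23 lower at 3 days (background 45.0%, with 21.9% higher and 23.1% lower), and 41 were higher and 17 lower at 6 days (background 75.1%, with 38.7% higher and 36.4% lower). Between adjacent times it gave 22 higher and 19 lower at 3 days against 1 day (background 34.5%, with 16.9% higher and 17.6% lower), and 46 higher and 14 lower at 6 days against 3 days (background 68.1%, with 34.0% higher and 34.1% lower). Of the 39 members called at any time, 28 were called at 6 days alone, 9 at 3 and 6 days in the same direction (EPHA3, PLXNA4, ROBO2, SEMA4G and SEMA6C higher, EPHB4, SEMA3C, SEMA3D and SLIT3 lower), and SLIT2 and DCC were called early but not at 6 days. At 6 days 14 ligands were higher and 6 lower of 34 tested, and 12 receptors were higher and 5 lower of 33 tested. In bulk RNA, fewer cells of a kind and less RNA per cell cannot be told apart. The labels do not say whether the 2 libraries of a group came from separate cultures. The study calls the replicates of this time course independent, without describing the cultures. These tests measure the spread between libraries.

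**Figure D1:**
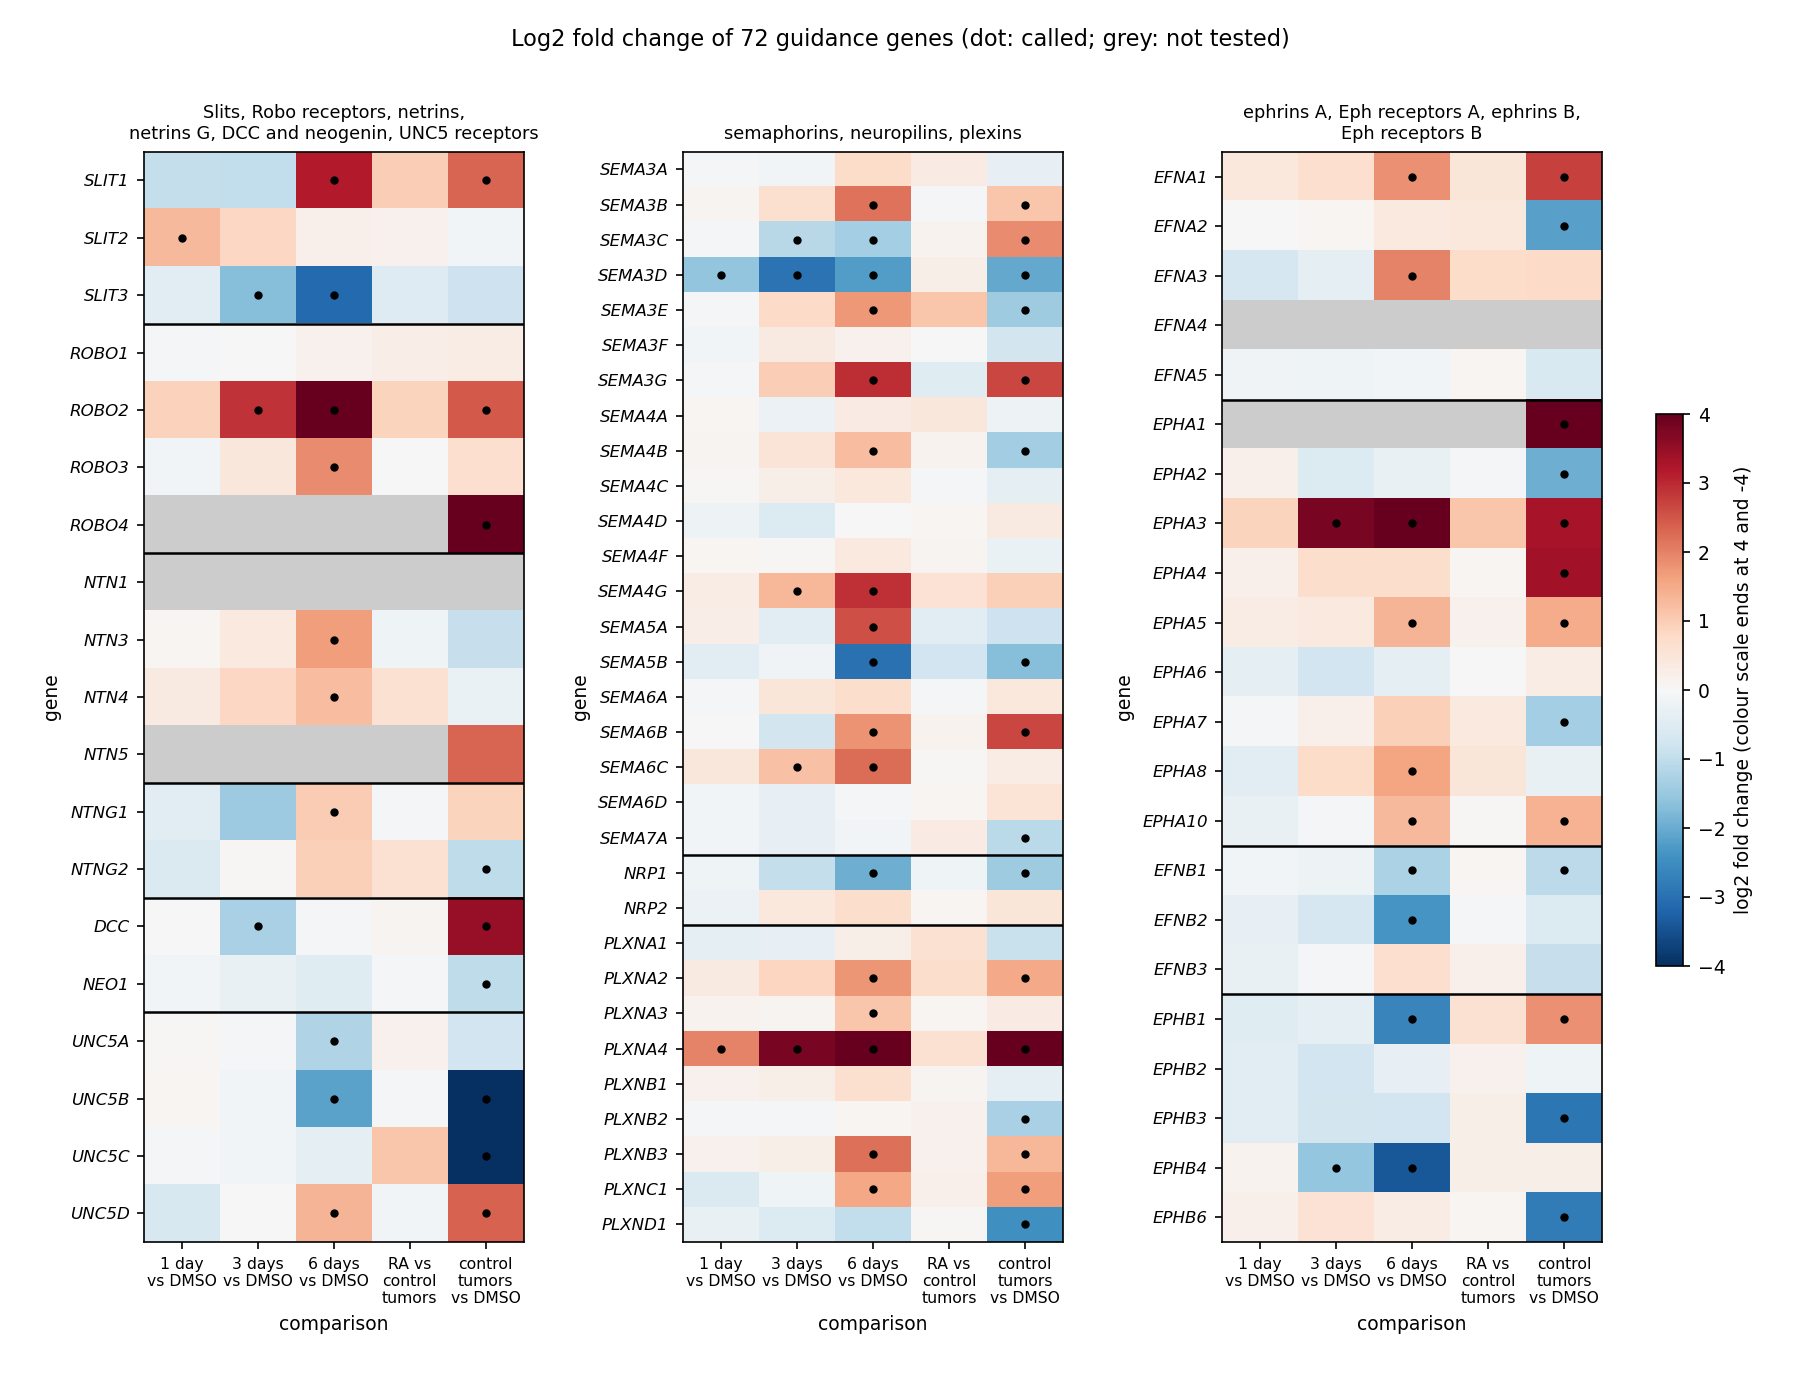
Log2 fold changes of the 72 guidance genes (rows, ordered by family) in 5 comparisons (columns); red is higher and blue lower in the group named first, a dot marks a gene that was called and grey a gene that was not tested. The dots gather in the 6-day column (26 higher, 11 lower) and in the column of control tumors against DMSO cells, and the RA tumor column holds none; EPHA1 was at 0 counts in DMSO, so its colour in the last column is no measured size.

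The Slit family exchanged its main member. SLIT3, a secreted repellent, fell steadily: its level was 84.6 and 84.7 CPM in DMSO, 61.9 and 61.4 CPM at 1 day, 25.7 and 25.2 CPM at 3 days and 10.8 and 9.196 CPM at 6 days (log2 fold change -3.11 ± 0.06 SE, FDR 8.7e-34). SLIT2, its paralog, peaked first, at 40.9 and 45.4 CPM after 1 day against 17.7 and 18.04 CPM in DMSO (log2 fold change 1.29 ± 0.06 SE, FDR 8.48e-20), and was back at 21.8 and 20.4 CPM by 6 days. SLIT1, the Slit found mainly in the nervous system, was the last to move. It read 1.91 and 1.51 CPM at 1 day and 1.49 and 1.799 CPM at 3 days, below the 3.27 and 3.43 CPM of DMSO though short of the 2-fold threshold, and then 31.2 and 30.4 CPM at 6 days (log2 fold change 3.17 ± 0.10 SE, FDR 3.84e-26). Nearly all of the SLIT1 change lay between 3 and 6 days (log2 fold change 4.15 ± 0.11 SE, FDR 1.37e-27). Per kb of exon, SLIT1 made up 56.4% ± 1.09 of the summed Slit level at 6 days (SD, n = 2) and 4.63% ± 0.134 in DMSO (SD, n = 2), whereas SLIT3 made up 11.7% ± 0.906 at 6 days and 74.99% ± 0.327 in DMSO. In between, SLIT2 held 46.4% ± 2.17 at 1 day, beside 51.4% ± 1.74 for SLIT3, and was the largest at 3 days with 58.7% ± 0.128, beside 37.6% ± 0.384 for SLIT3. The summed Slit level was 5.98 ± 0.231 CPM per kb at 6 days and 7.92 ± 0.0408 CPM per kb in DMSO.

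Among the Robo receptors, which bind Slits, ROBO2 joined ROBO1. ROBO2 (GENCODE v44, hg38, chr3:75906695-77649964, plus strand) measured 11.4 and 11.02 CPM in DMSO, 20.6 and 21.3 CPM at 1 day, 79.4 and 84.03 CPM at 3 days and 414.5 and 413.6 CPM at 6 days, and each time point lay apart from the one before. Its log2 fold change against DMSO was 2.89 ± 0.04 at 3 days and 5.17 ± 0.04 at 6 days (SE; FDR 2e-45). ROBO1 was the most abundant of the 72 genes per kb in every group, at 576.5 and 590.7 CPM at 6 days and 506.6 and 495.7 CPM in DMSO, a log2 difference of 0.19 ± 0.02 that was under the 2-fold threshold. The ROBO2 share of the family per kb grew to 31.04% ± 0.342 at 6 days, against 1.45% ± 0.0136 in DMSO. ROBO3, which tunes the crossing of the midline by commissural axons, read 17.3 and 15.99 CPM at 6 days and 4.96 and 3.78 CPM in DMSO (log2 fold change 1.89 ± 0.11 SE, FDR 1.07e-17). ROBO4, the endothelial Robo, had between 0 and 6 counts per library in cells and was not tested there.

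**Figure D2:**
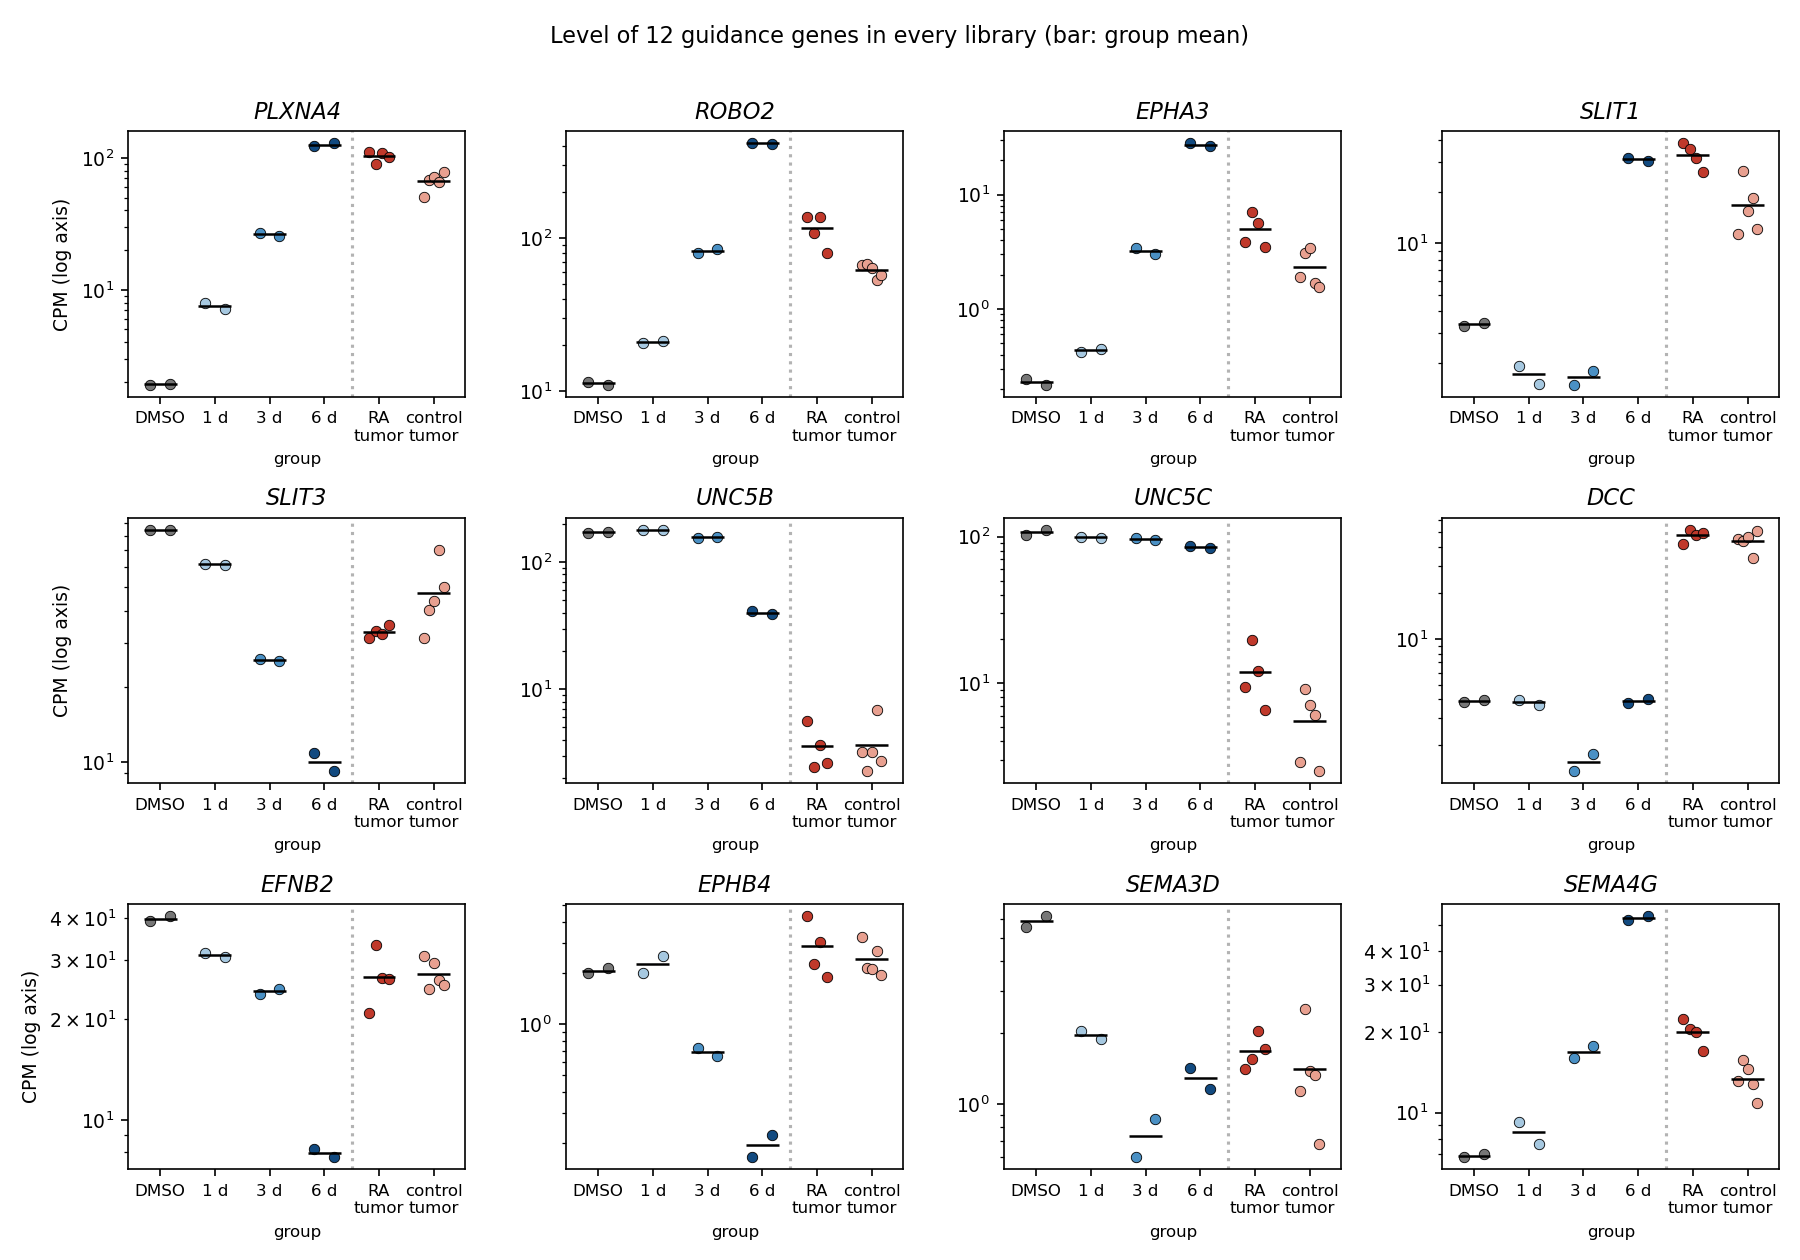
CPM on a log axis of 12 guidance genes in every library; points are libraries, bars are group means, cells stand left of the dotted line and tumors right of it. PLXNA4, ROBO2, EPHA3 and SEMA4G climb through the ATRA series, SLIT3 and EPHB4 descend, and UNC5B drops mainly between 3 days (155.8 and 156.8 CPM) and 6 days (41.2 and 38.8 CPM).

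In the netrin system 2 of the 4 UNC5 receptors fell at 6 days and 2 of the 4 netrins rose. Over all genes 12.3% were lower and 18.8% higher at that time. UNC5B, a repulsive netrin receptor, was at 41.2 and 38.8 CPM at 6 days against 168.8 and 173.5 CPM in DMSO (log2 fold change -2.13 ± 0.03 SE, FDR 7.28e-36), and it had moved by less than 2-fold at 1 and 3 days. UNC5A showed the same timing, with 14.3 and 13.4 CPM at 6 days and 31.2 and 31.1 CPM in DMSO (log2 fold change -1.21 ± 0.06 SE, FDR 1.05e-19). UNC5C changed by less than 2-fold, with 86.3 and 83.2 CPM at 6 days and 102.4 and 111.6 CPM in DMSO, and so became the largest UNC5 gene per kb at 46.1% ± 0.383 of the family, against 23.6% ± 0.862 in DMSO. UNC5D was low, at 2.18 and 2.37 CPM at 6 days and 1.2 and 0.499 CPM in DMSO (log2 fold change 1.36 ± 0.29 SE, FDR 9.58e-05), and without DMSO replicate 2 its log2 fold change of 0.88 was under the threshold. The family sum was 17.2 ± 0.591 CPM per kb at 6 days, against 42.3 ± 1.02 CPM per kb in DMSO.

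DCC, the receptor through which netrins attract, dipped and returned. It read 3.85 and 3.996 CPM in DMSO, 3.97 and 3.68 CPM at 1 day, 1.36 and 1.77 CPM at 3 days and 3.77 and 4.005 CPM at 6 days, so the 3-day libraries lay below all others (log2 fold change -1.29 ± 0.18 SE, FDR 1.31e-07) and the 6-day libraries were level with DMSO (-0.04 ± 0.15). Neogenin (NEO1), the DCC paralog that also binds repulsive guidance molecules, was at 75.3 and 72. CPM at 6 days and 104.0 and 99.5 CPM in DMSO, a difference under 2-fold. The netrin ligands on hand were NTN3, at 37.1 and 38.2 CPM at 6 days and 10.8 and 12.5 CPM in DMSO (log2 fold change 1.67 ± 0.07 SE, FDR 2.73e-22), and NTN4, a matrix-bound netrin, at 5.75 and 5.09 CPM at 6 days and 2.26 and 2.19 CPM in DMSO (log2 fold change 1.25 ± 0.16 SE, FDR 6.88e-09). NTN1, the founding chemoattractant, had 0 counts in all 8 cell libraries, which over the DMSO group allows a level of up to 0.0437 CPM (3 counts). NTNG1, a membrane-anchored netrin G, passed narrowly with 0.661 and 0.673 CPM at 6 days and 0.273 and 0.375 CPM in DMSO (log2 fold change 1.01 ± 0.44 SE, FDR 0.0392); leaving out any 1 of the 8 cell libraries ended that call, with log2 fold changes of 0.78 to 1.23. NTNG2, its paralog, was at 11.96 and 11.9 CPM at 6 days and 5.37 and 6.805 CPM in DMSO, a log2 fold change of 0.94 just outside the threshold.

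**Figure D3:**
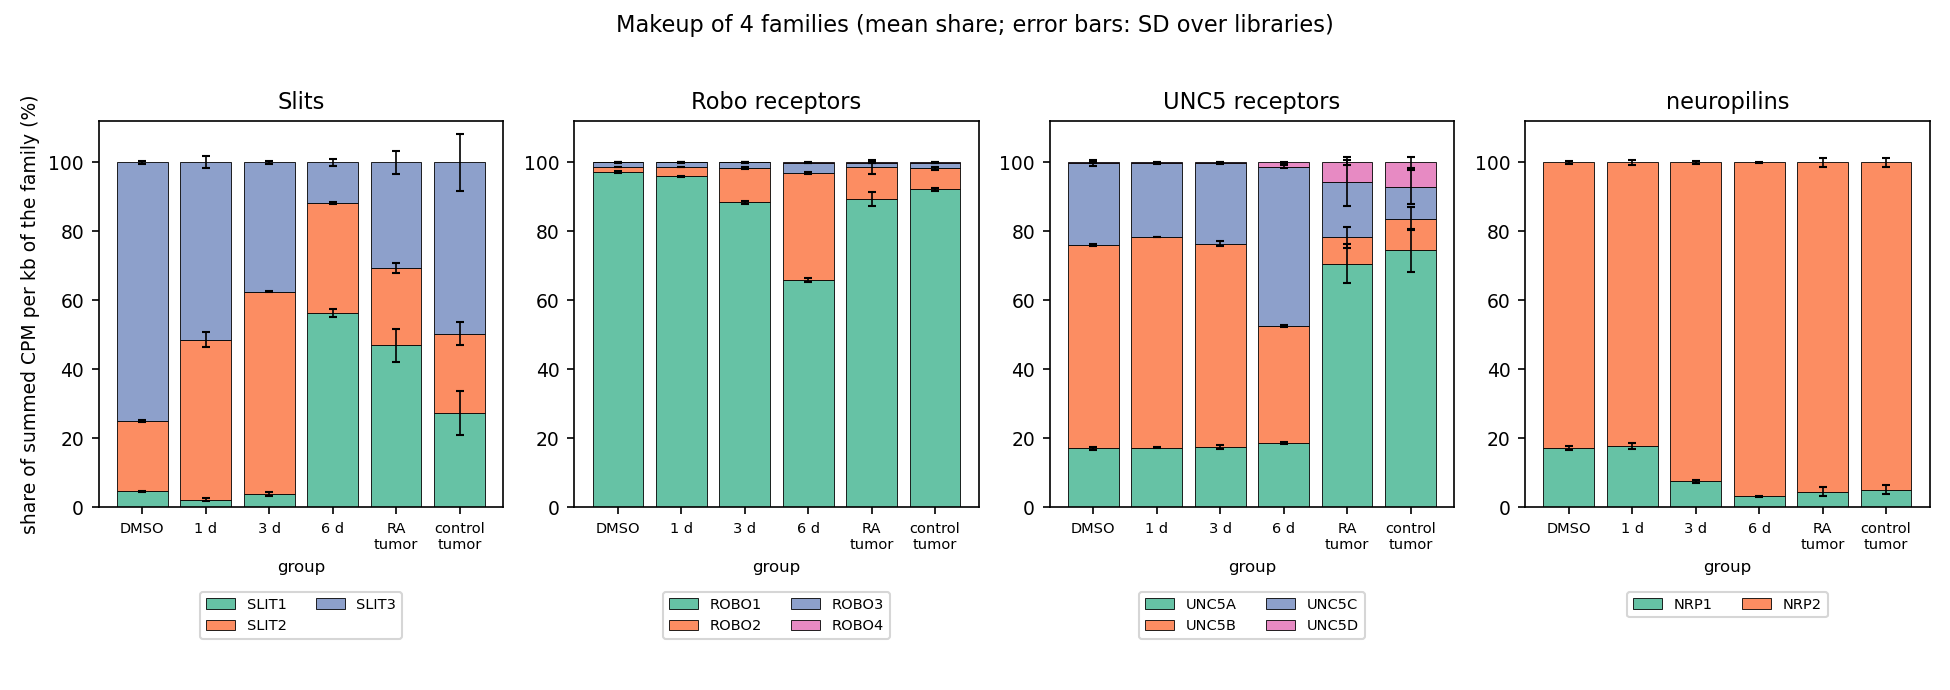
Share of each member in its family's summed CPM per kb of exon (percent; bars are group means, error bars the SD over libraries, n = 2 for cells, 4 for RA tumors and 5 for control tumors) for Slits, Robo receptors, UNC5 receptors and neuropilins. The largest Slit share passes to SLIT2 at 3 days and to SLIT1 at 6 days, ROBO2 gains beside ROBO1 along the ATRA series, and UNC5A holds most of the UNC5 total in tumors (70.7% ± 5.76 in RA tumors and 74.5% ± 6.24 in control tumors).

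Semaphorins moved in both directions. Of the 20 genes, 8 were higher and 3 lower at 6 days, beside 18.8% higher and 12.3% lower over all genes. The share that was lower is thus near that of all genes. SEMA3D, a secreted class 3 semaphorin, was the first to fall: 5.56 and 6.18 CPM in DMSO, 2.03 and 1.87 CPM at 1 day, 0.596 and 0.869 CPM at 3 days and 1.42 and 1.15 CPM at 6 days, with log2 fold changes of -1.57 ± 0.17, -2.95 ± 0.21 and -2.22 ± 0.19 at 1, 3 and 6 days. SEMA3C was scarce, at 0.264 and 0.352 CPM at 6 days and 0.764 and 0.812 CPM in DMSO (log2 fold change -1.37 ± 0.41 SE, FDR 0.00322). Its 3-day call (log2 fold change -1.12, FDR 0.0219) was lost in DESeq2 (adjusted p = 0.152) and without any of DMSO replicates 1 and 2 and 3-day replicates 1 and 2. Other class 3 members rose at low levels. SEMA3B, known as a candidate tumor suppressor, reached 13.4 and 14.3 CPM at 6 days against 3.14 and 2.81 CPM in DMSO (log2 fold change 2.18 ± 0.12 SE, FDR 3.37e-18). The plexin D1 ligand SEMA3E measured 10.3 and 10.2 CPM at 6 days and 3.14 and 2.84 CPM in DMSO (log2 fold change 1.74 ± 0.13 SE, FDR 9.72e-15). SEMA3G was the rarest of the 3, at 1.12 and 0.993 CPM at 6 days and 0.109 and 0.156 CPM in DMSO (log2 fold change 2.94 ± 0.49 SE, FDR 1.49e-06). SEMA3A, the prototype growth cone collapsing factor, was at 22.7 and 21.7 CPM at 6 days and 13.99 and 11.7 CPM in DMSO, short of 2-fold (log2 fold change 0.75 ± 0.08).

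The transmembrane semaphorins gave the larger levels. SEMA4G climbed in every step, with 6.82 and 7.02 CPM in DMSO, 9.26 and 7.67 CPM at 1 day, 16. and 17.7 CPM at 3 days and 52.4 and 54.02 CPM at 6 days (log2 fold change 2.91 ± 0.07 SE, FDR 7.12e-29). An antisense neighbour, MRPL43, overlaps 28% of its exons, and the strand setting of the counting was not given in the sources used here; MRPL43 itself had a log2 fold change of -0.43 at 6 days. SEMA6C, a class 6 cue that repels through plexin A receptors, followed with 10.2 and 10.6 CPM in DMSO, 13.8 and 14.2 CPM at 1 day, 23.1 and 22.6 CPM at 3 days and 50.3 and 49.05 CPM at 6 days (log2 fold change 2.23 ± 0.06 SE, FDR 5.3e-28). The class 5 pair parted: SEMA5A was at 21.6 and 22.1 CPM at 6 days and 4.31 and 2.84 CPM in DMSO (log2 fold change 2.56 ± 0.12 SE, FDR 2.17e-17), and SEMA5B at 0.958 and 1.67 CPM at 6 days and 10.2 and 10.2 CPM in DMSO (log2 fold change -2.99 ± 0.15 SE, FDR 2.11e-19). Both moved between 3 and 6 days. SEMA6B (log2 fold change 1.80 ± 0.17) and SEMA4B (1.24 ± 0.07) were also higher at 6 days. SEMA6A, the most abundant semaphorin per kb, was at 191.5 and 189.9 CPM at 6 days and 116.2 and 114.3 CPM in DMSO, which was under 2-fold, and SEMA4C, SEMA4D, SEMA4F, SEMA6D and SEMA7A had log2 fold changes between -0.11 and 0.41.

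Plexins, the semaphorin receptors, gave 5 higher and 0 lower of 9 at 6 days (background 18.8% higher and 12.3% lower). PLXNA4, which reads class 3 semaphorins with neuropilins and class 6 semaphorins on its own, was the only plexin called at 1, 3 and 6 days. The gene lies at chr7:132123340-132648688 (GENCODE v44, hg38, minus strand). It measured 1.91 and 1.94 CPM in DMSO, 7.91 and 7.12 CPM at 1 day, 26.9 and 25.8 CPM at 3 days and 123.8 and 129.3 CPM at 6 days, with log2 fold changes of 1.98 ± 0.11, 3.81 ± 0.09 and 6.01 ± 0.07 (FDR 4.03e-39 at 6 days). Its share of the summed plexin level per kb was 8.91% ± 0.00283 at 6 days, against 0.178% ± 0.001002 in DMSO, and PLXNB2, PLXNA1 and PLXNA3 had larger shares. PLXNA2 was at 30.2 and 32.2 CPM at 6 days and 8.59 and 9.52 CPM in DMSO (log2 fold change 1.76 ± 0.07 SE, FDR 3.15e-22), and PLXNA3, a receptor for SEMA3F, at 223.2 and 236.4 CPM at 6 days and 103.8 and 103.7 CPM in DMSO (log2 fold change 1.11 ± 0.03 SE, FDR 9.25e-29). PLXNC1, the SEMA7A receptor, and PLXNB3 were low and both rose: PLXNC1 had 7.73 and 7.69 CPM at 6 days and 2.65 and 2.47 CPM in DMSO (log2 fold change 1.56 ± 0.16). PLXNB3 had 1.95 and 1.602 CPM at 6 days and 0.545 and 0.187 CPM in DMSO (log2 fold change 2.19 ± 0.36). PLXNB3 shares 20.4% of its exon length with SRPK3 on the same strand, whose log2 fold change was 2.37. PLXND1, the SEMA3E receptor, had 68.5 and 72.4 CPM at 6 days and 135.2 and 139.7 CPM in DMSO, a log2 fold change of -0.997 that lay on the threshold and was not called, though 11 of 15 alternatives called it lower. Of the neuropilins, NRP1, the SEMA3A co-receptor, fell to 5.22 and 4.84 CPM at 6 days against 19.6 and 18.5 CPM in DMSO (log2 fold change -1.95 ± 0.09 SE, FDR 4.22e-21), while NRP2, the SEMA3F co-receptor, read 182.7 and 182.6 CPM at 6 days and 110.2 and 109.8 CPM in DMSO, under 2-fold. NRP2 thus held 96.8% ± 0.164 of the neuropilin level per kb at 6 days and 82.7% ± 0.515 in DMSO.

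In the ephrin and Eph families every call at 6 days was higher in the A class and lower in the B class. Among EphA receptors 4 of 8 tested were higher and 0 lower, and among EphB receptors 2 of 5 were lower and 0 higher. Likewise 2 of 4 ephrin A genes were higher, and 2 of 3 ephrin B genes lower. Over all genes 18.8% were higher and 12.3% lower, and each of these classes holds few genes. EPHA3, a receptor for ephrin A5, had the highest log2 fold change of the members: 0.245 and 0.218 CPM in DMSO, 0.422 and 0.447 CPM at 1 day, 3.44 and 3.04 CPM at 3 days and 28.01 and 26.5 CPM at 6 days (log2 fold change 6.82 ± 0.16 SE, FDR 9.72e-30). EPHA3 made up 17.4% ± 0.781 of the summed Eph level per kb at 6 days, against 0.251% ± 0.0201 in DMSO. EPHA8 was at 26.7 and 27.8 CPM at 6 days and 9.22 and 8.52 CPM in DMSO (log2 fold change 1.58 ± 0.07 SE, FDR 1.67e-20). EPHA10, which lacks kinase activity, was at 25.1 and 24. CPM at 6 days and 9.9 and 9.43 CPM in DMSO (log2 fold change 1.31 ± 0.08 SE, FDR 1.47e-17), and EPHA5, a receptor of the developing nervous system, at 2.58 and 2.21 CPM at 6 days and 0.873 and 0.968 CPM in DMSO (log2 fold change 1.34 ± 0.24 SE, FDR 5.62e-06). EPHA7 missed the threshold narrowly (log2 fold change 0.97 ± 0.06). Of the ephrin A ligands, EFNA5 was the most abundant ligand per kb and read 135.9 and 142.2 CPM at 6 days and 145.0 and 146.6 CPM in DMSO (log2 fold change -0.10 ± 0.03). EFNA3 was at 8.49 and 9.68 CPM at 6 days and 2.1 and 2.404 CPM in DMSO (log2 fold change 1.98 ± 0.15 SE, FDR 4.89e-14), and EFNA1 at 1.49 and 1.51 CPM at 6 days and 0.409 and 0.406 CPM in DMSO (log2 fold change 1.83 ± 0.33 SE, FDR 5.02e-06). EFNA3 shares 43.9% of its exon length with the EFNA4-EFNA3 readthrough gene, so its counts are uncertain.

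EPHB4 and its ligand EFNB2, a pair known from arteries and veins, both fell. EFNB2 was at 39.2 and 40.6 CPM in DMSO, 31.5 and 30.6 CPM at 1 day, 23.7 and 24.7 CPM at 3 days and 8.16 and 7.72 CPM at 6 days (log2 fold change -2.36 ± 0.06 SE, FDR 6.42e-28), and an antisense gene that overlaps 36.4% of its exons had 1 count at 6 days and 0 in DMSO. In tumors that antisense gene had 847 counts over the RA group and 916 over the control group, so EFNB2 values in tumors are uncertain with the strand setting not given. EPHB4 was scarce and read 0.165 and 0.224 CPM at 6 days against 1.99 and 2.12 CPM in DMSO (log2 fold change -3.40 ± 0.33 SE, FDR 1.74e-11). EPHB1 was as scarce, at 0.165 and 0.224 CPM at 6 days and 1.34 and 1.06 CPM in DMSO (log2 fold change -2.63 ± 0.39 SE, FDR 1.99e-07). EFNB1, another transmembrane ephrin, had 2.97 and 3.43 CPM at 6 days and 7.64 and 7.37 CPM in DMSO (log2 fold change -1.26 ± 0.13 SE, FDR 3.47e-11), whereas EFNB3 was at 32.2 and 31.9 CPM at 6 days and 18.9 and 20.4 CPM in DMSO, higher by less than 2-fold. The abundant EphB genes, EPHB6 (a kinase-inactive receptor) and EPHB2, stayed within 2-fold (log2 fold changes 0.30 ± 0.06 and -0.33 ± 0.06).

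In tumors the RA effect was small. With edgeR, 0 of 67 members were called between RA and control tumors (background 0.284% of 21098 genes, with 0.246% higher and 0.0379% lower). At an unadjusted p under 0.05, 18 members were higher and 2 lower (background 9.11% higher, 15.4% in either direction), and DESeq2 called 1, EPHA3. With the fold threshold set aside, 7 members passed an FDR of 0.05, all higher in RA tumors (background 1.62%, with 1.4% higher): PLXNA2, PLXNA4, PLXNA1, SEMA4G, ROBO2, EFNA3 and ROBO1. For 10 members every RA tumor lay above every control tumor (background 3.88%), and for 0 members below (background 1.93%). The median log2 fold change was 0.14, against -0.01 over all genes, and 51 members had values above 0 and 16 below.

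ROBO1 was the tightest of these. It measured 740.8, 748.5, 754.9 and 737.9 CPM in RA tumors and 637.5, 625.3, 650.4, 568.5 and 622.1 CPM in control tumors (log2 fold change 0.26 ± 0.06 SE, FDR 0.0363), so the change was small and the groups did not overlap. ROBO2 was at 136.7, 107.1, 137.7 and 79.4 CPM in RA tumors and 66.2, 67.99, 63.7, 52.8 and 57.3 CPM in control tumors (log2 fold change 0.90 ± 0.16 SE, FDR 0.0237), with 1 RA tumor much nearer to the controls than the other 3. Without that tumor, RA replicate 4, ROBO2 and EPHA3 passed both thresholds. The plexin A receptors were apart as well. PLXNA4 read 110.3, 90.4, 110.0 and 101.9 CPM in RA tumors and 50.6, 67.7, 71.3, 65.9 and 78.3 CPM in control tumors (log2 fold change 0.62 ± 0.11 SE, FDR 0.0123). PLXNA2 read 39.7, 49.8, 45.9 and 34.3 CPM in RA tumors and 22.5, 24.02, 30.4, 23.9 and 29.3 CPM in control tumors (log2 fold change 0.70 ± 0.12 SE, FDR 0.0114). For PLXNA1, a class A plexin that had moved by less than 2-fold in cells, the values were 170.2, 175.1, 141.3 and 201.6 CPM in RA tumors and 131.5, 110.6, 116.5, 114.7 and 92.3 CPM in control tumors (log2 fold change 0.60 ± 0.10 SE, FDR 0.0138). In all 3 plexins each RA tumor was above each control tumor.

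SEMA4G had 22.4, 20.5, 20. and 17.03 CPM in RA tumors and 13.1, 15.7, 14.5, 12.8 and 10.8 CPM in control tumors (log2 fold change 0.57 ± 0.12 SE, FDR 0.0223), and EFNA3 had 7.49, 6.51, 6.67 and 4.67 CPM in RA tumors and 3.83, 3.98, 3.33, 4.38 and 3.45 CPM in control tumors (log2 fold change 0.73 ± 0.16 SE, FDR 0.0354). EPHA3 had a larger but looser difference, with 3.86, 7.02, 5.65 and 3.49 CPM in RA tumors and 1.89, 3.08, 3.43, 1.68 and 1.57 CPM in control tumors (log2 fold change 1.10 ± 0.27 SE, FDR 0.0623). SLIT1, the Slit that came up late in culture, read 38.3, 35.6, 31.5 and 26.1 CPM in RA tumors and 11.3, 26.4, 15.3, 18.4 and 12.04 CPM in control tumors (log2 fold change 0.97 ± 0.24 SE, FDR 0.0998). Its groups met at the edge, since control replicate 2 lay above RA replicate 4, and without control replicate 2 SLIT1, EPHA3 and SEMA3E passed both thresholds. NTN4 and SEMA7A were the other members whose groups did not overlap (log2 fold changes 0.60 ± 0.19 and 0.33 ± 0.13, FDR 0.145 and 0.236). The members with the lowest values, SEMA5B (-0.78 ± 0.33) and SLIT3 (-0.52 ± 0.20), overlapped between groups.

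**Figure D4:**
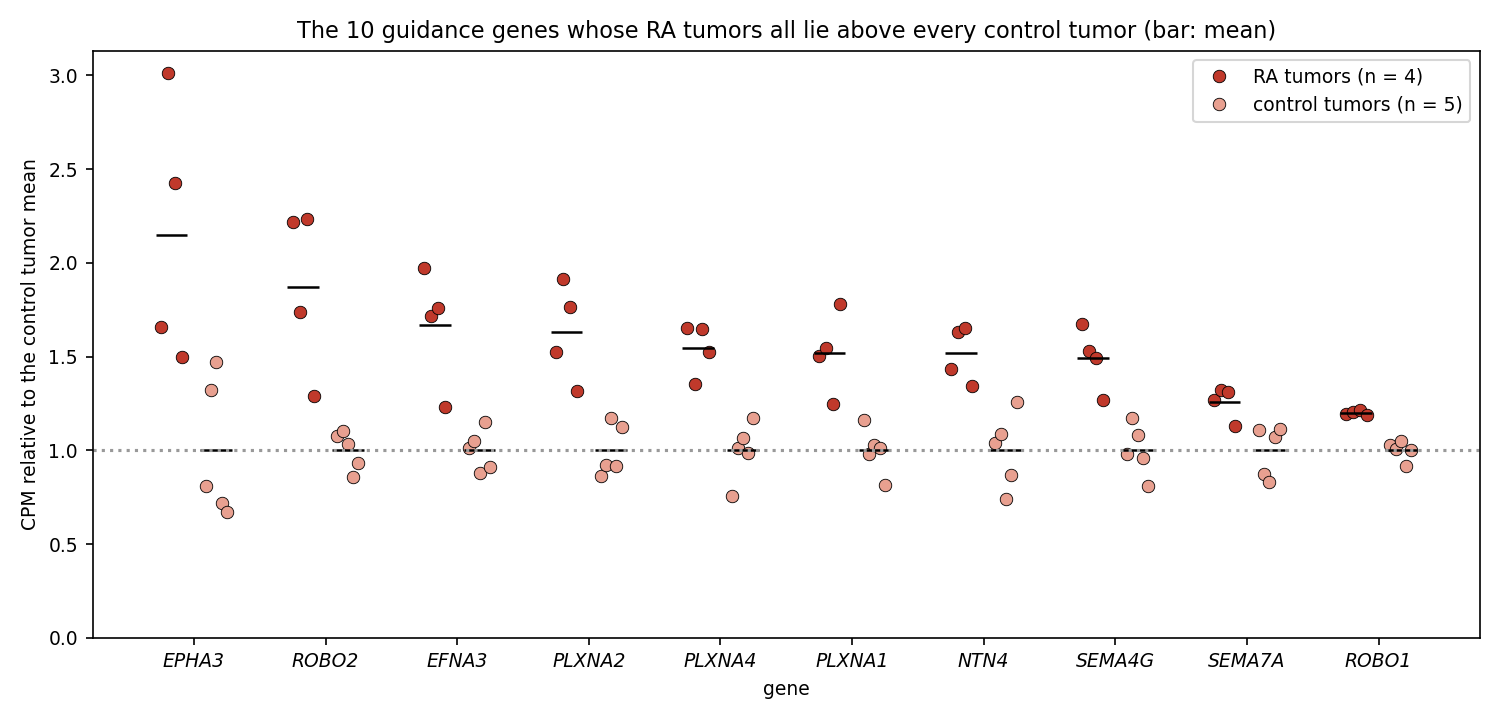
CPM of each tumor divided by the control tumor mean for the 10 guidance genes whose groups did not overlap; dark points are the 4 RA tumors, light points the 5 control tumors and bars the means. EPHA3 and ROBO2 have the highest RA means and a wide RA spread, and ROBO1 the lowest mean and the narrowest spread.

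RA tumors and 6-day cells share no libraries, so their values may be set side by side, although the drug (13-cis RA or ATRA), the schedule and the library kit differ. Of the 26 members called higher at 6 days, 20 (76.9%) had RA tumor values above 0 (median log2 fold change 0.18), close to the share over all 67 members (76.1%), and of the 11 called lower, 6 (54.5%) were above 0 (median 0.065). Over all 21098 genes tested in tumors the share was 48.3%. The difference between both effects was tested in 1 model over all libraries. It was past both thresholds for 33 members, 11 with a higher and 22 with a lower RA effect in tumors than in cells (background 20.9% of 25787 genes, with 7.78% higher and 13.1% lower). PLXNA4, EPHA3 and ROBO2 gave the widest gaps, with differences of -5.41 ± 0.20, -5.74 ± 0.49 and -4.30 ± 0.26. Levels without retinoic acid differed between the settings as well. Control tumors held 66.8 ± 10.2 CPM of PLXNA4, 61.6 ± 6.38 CPM of ROBO2 and 2.33 ± 0.863 CPM of EPHA3 (SD, n = 5). DMSO cells held 1.92 ± 0.0186, 11.2 ± 0.308 and 0.232 ± 0.019 CPM in the same order (SD, n = 2). Whether these levels bear on the gaps was not tested.

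**Figure D5:**
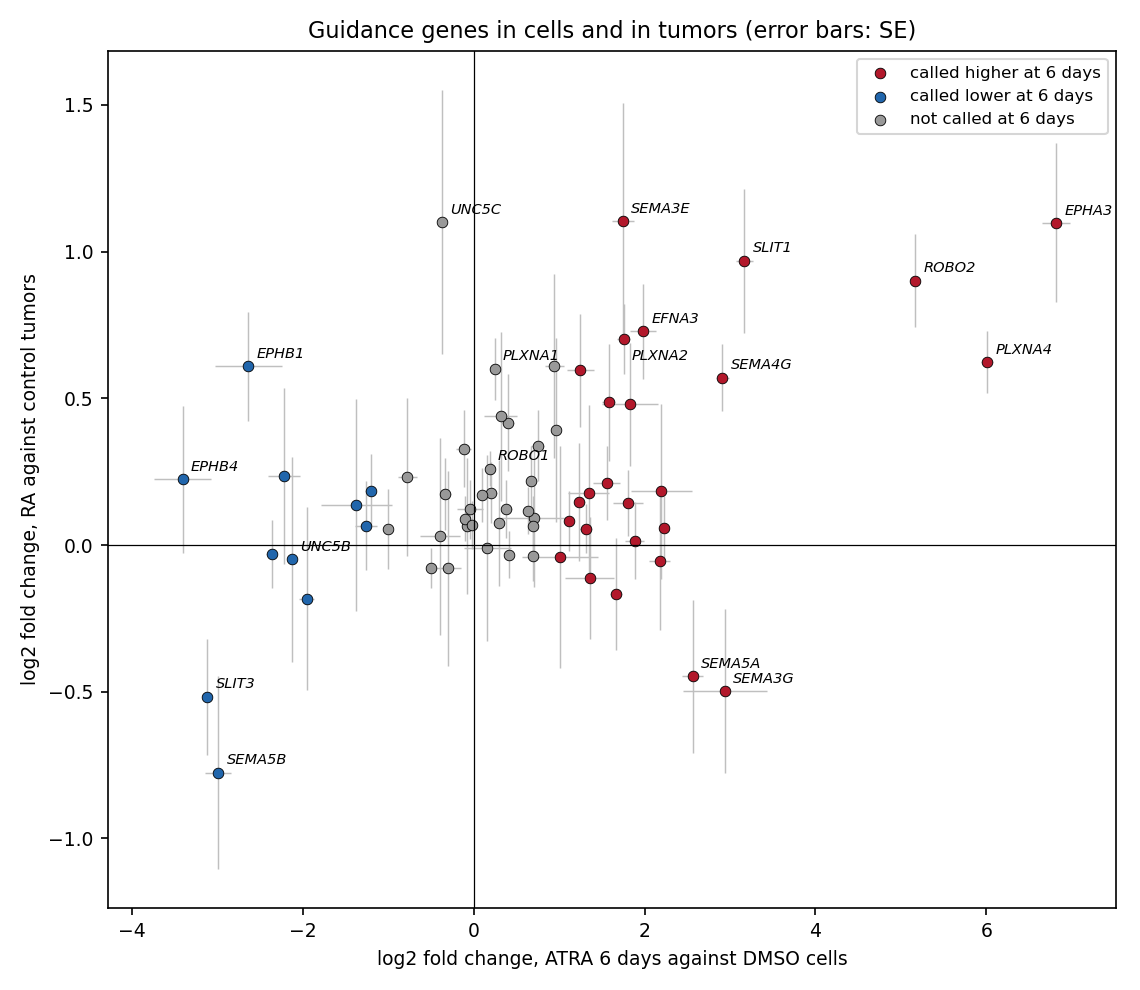
Log2 fold change of each guidance gene tested in both settings, in cells at 6 days against DMSO (horizontal axis) and in RA against control tumors (vertical axis), with SE bars; colour gives the call at 6 days. EPHA3, ROBO2, PLXNA4 and SLIT1 lie at upper right, SLIT3 and SEMA5B at lower left, and the vertical axis spans a far shorter range than the horizontal one.

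Without retinoic acid treatment, tumors and cultured cells also differed in many guidance genes. Control tumors had 20 members higher and 18 lower than DMSO cells, of 70 tested (background 42.9%, with 31.5% higher and 11.4% lower), or 29 higher and 31 lower by the FDR alone (background 71.7%, with 42.2% higher and 29.5% lower), and the members' median log2 fold change was -0.14, against 0.25 over all genes. Site of growth, host, luciferase label and library kit all differ between the arms and cannot be told apart, and removal of mouse reads is not given in the sources used here. This comparison and the 6-day one share the DMSO libraries.

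Netrin receptors gave the lowest values. UNC5B was at 3.18, 2.27, 3.18, 6.92 and 2.72 CPM in control tumors and 168.8 and 173.5 CPM in DMSO cells (log2 fold change -5.55 ± 0.27 SE, FDR 1.27e-09), and UNC5C at 2.91, 9.096, 7.07, 6.11 and 2.51 CPM in control tumors and 102.4 and 111.6 CPM in DMSO cells (log2 fold change -4.26 ± 0.38 SE, FDR 7.5e-07), while UNC5A, lower by less than 2-fold, made up 74.5% ± 6.24 of the UNC5 level per kb in control tumors and 17.1% ± 0.452 in DMSO cells. DCC was higher, with 44.9, 44.01, 46.4, 33.7 and 50.8 CPM in control tumors and 3.85 and 3.996 CPM in DMSO cells (log2 fold change 3.49 ± 0.15 SE, FDR 1.16e-13). RA tumors had 42.1, 51.9, 47.96 and 49.6 CPM of DCC and 5.65, 2.46, 3.62 and 2.64 CPM of UNC5B. NTN1 had 14 counts over the 5 control tumors, at least 3.28-fold higher than the 3-count floor over the DMSO group.

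PLXNA4, ROBO2, EPHA3 and SLIT1 were higher in control tumors than in DMSO cells, with log2 fold changes of 5.12 ± 0.17, 2.45 ± 0.20, 3.30 ± 0.44 and 2.32 ± 0.31. EPHA4, scarce in cells at 0.654 and 0.281 CPM in DMSO, had 3.78, 6.02, 5.02, 6.56 and 3.09 CPM in control tumors (log2 fold change 3.35 ± 0.38 SE, FDR 2.09e-07). Also higher were EPHA5, EPHA10, EPHB1, UNC5D, EFNA1, PLXNA2, PLXNB3, PLXNC1, SEMA3B, SEMA3C, SEMA3G and SEMA6B, with log2 fold changes between 1.11 and 2.72, and the low-count ROBO4 (4.25 ± 1.17). EPHA1 had 32 counts over the control tumors and 0 in DMSO cells, at least 7.58-fold higher. SEMA3C and EPHB1 were lower at 6 days of ATRA and higher in control tumors, SEMA3E and SEMA4B the reverse.

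The lower members were led, after UNC5B and UNC5C, by EphB genes and plexin D1. EPHB3 was at 1.24, 1.23, 1.18, 1.37 and 1.05 CPM in control tumors and 9.14 and 9.05 CPM in DMSO cells (log2 fold change -2.90 ± 0.20 SE, FDR 1.14e-10). EPHB6 had 3.89, 2.37, 4.05, 2.14 and 2.46 CPM in control tumors and 20.8 and 20.9 CPM in DMSO cells (log2 fold change -2.81 ± 0.15 SE, FDR 2.74e-12), and PLXND1 had 30.6, 26.2, 26.4, 25.2 and 18.4 CPM in control tumors and 135.2 and 139.7 CPM in DMSO cells (log2 fold change -2.44 ± 0.13 SE, FDR 5.6e-11). No tumor overlapped a DMSO library in these 3 genes. The remaining 13, EFNA2, SEMA3D, EPHA2, SEMA5B, SEMA3E, NRP1, SEMA4B, EPHA7, PLXNB2, SEMA7A, EFNB1, NEO1 and NTNG2, had log2 fold changes between -2.19 and -1.002. Summed per kb, the UNC5 receptors stood at 5.71 ± 1.06 CPM in control tumors and 42.3 ± 1.02 CPM in DMSO cells and the EphB receptors at 4.003 ± 0.452 CPM in control tumors and 8.77 ± 0.0829 CPM in DMSO cells. The Robo receptors stood higher, at 60.9 ± 3.16 CPM in control tumors and 46.7 ± 0.839 CPM in DMSO cells.

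Beside the ligands and receptors, 45 genes of the intracellular machinery that carries their signals were read as a list. At 6 days 7 were higher and 4 lower of 44 tested, which is 25.0% and below the 31.2% of all genes. CRMP1, a collapsin response mediator that relays semaphorin signals, had a log2 fold change of 1.78, and VAV3 (2.99), LIMK1 (1.67) and SRGAP3 (1.56), a Slit-Robo GTPase-activating protein, were also higher. Its relative SRGAP2 (-1.69) and MICAL2 (-2.16), of a family of actin-oxidizing enzymes, were lower. The median of this list was 0.04, level with all genes. In a list of 27 other cues and co-receptors, 7 were higher and 4 lower of 25 tested at 6 days, which is 44% beside the 31.2% of all genes. DSCAM, a netrin receptor and adhesion molecule, had the highest value (5.37), followed by DRAXIN (2.83), a secreted ligand of DCC, and FLRT1 (2.56), and FLRT3, an UNC5 ligand, was lower (-2.86). Neither list had a call between RA and control tumors.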

How the data were processed

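RNA-seq of 8 cell libraries and 9 tumor libraries was used. Per the labels and the study's methods, reads were trimmed with Trim Galore 0.4.4, aligned to hg38 with STAR 2.7.10a and quantified with RSEM 1.3.3; the annotation release, the strand setting and any removal of mouse reads are not given in the sources used here. The files the authors deposited hold RSEM expected counts, which are estimates and were rounded. Of all values, zeros included, 7.55% in cells and 14.66% in tumors were not whole. The 72 members were matched by symbol; positions, exon lengths and overlaps came from GENCODE v44.

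Genes passed edgeR's filterByExpr with a minimum count of 10 in 3 models (cells, 20237 genes; tumors, 21098; all 17 libraries, 25787, used for tumors against cells and the difference of effects). EFNA4, EPHA1, NTN1, NTN5 and ROBO4 failed the filter within cells and within tumors, with at most 13 counts in any library; EFNA4 and NTN1 failed it over all libraries too. Quasi-likelihood tests (edgeR 4.0.16, TMM scaling, robust, R 4.3.3) were adjusted by Benjamini-Hochberg over all genes of a model; called means FDR under 0.05 and over 2-fold. SE is the log2 fold change over the root of F. The common biological coefficient of variation was 2.65% in cells and 13.88% in tumors, so tumor differences are less precise. CPM use TMM factors over all libraries. Alternatives were DESeq2 1.42.0, RLE factors, no filter, a minimum count of 50, FDR alone, the compared groups alone, the replicate number as a block and leaving out each library. No 2 libraries of a group agreed within sampling noise. The script was tested on simulated data. The members and lists were chosen with earlier results of these data known. Named genes are the members called in a comparison, up to 30 by size, binding partners of these, filtered members, and up to 6 called genes of each further list.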

Additional observations from a re-analysis of the deposited data

Results flagged for a closer look

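Over 67 members in 2 tumor groups, 1 tumor of a group stood apart from the rest by Dixon's criterion in 6 cases; chance flags about 1 in 20 groups. NEO1 read 44.51 CPM in RA replicate 3, with 48.16 to 48.58 CPM in the other RA tumors. NRP1 read 3.719 CPM and PLXNA3 151.0 CPM in RA replicate 4, with 6.709 to 7.286 CPM and 134.4 to 137.0 CPM in the other RA tumors. PLXNC1 read 7.38 CPM and EPHA5 1.51 CPM in RA replicate 1, with 10.04 to 10.24 CPM and 3.236 to 3.556 CPM in the other RA tumors. UNC5B read 6.92 CPM in control replicate 4, with 2.274 to 3.184 CPM in the other control tumors. None of these 6 members was called between RA and control tumors.

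For 33 members the RA effect in tumors differed from the 6-day ATRA effect in cells, by the interaction term of the model over all libraries (edgeR, FDR under 0.05 and over 2-fold); the values are the tumor log2 fold change minus the cell log2 fold change. Among the ligands, the difference was below 0 for SEMA3G (-3.46), SEMA5A (-3.04), SEMA4G (-2.37), SEMA3B (-2.27), SLIT1 (-2.23), SEMA6C (-2.2), NTN3 (-1.85), SEMA6B (-1.69), EFNA1 (-1.38), EFNA3 (-1.28) and SEMA4B (-1.11), and above 0 for SLIT3 (2.57), SEMA3D (2.42), EFNB2 (2.3), SEMA5B (2.18) and EFNB1 (1.3). Among the receptors, it was below 0 for EPHA3 (-5.74), PLXNA4 (-5.41), ROBO2 (-4.3), PLXNB3 (-2.05), ROBO3 (-1.91), UNC5D (-1.5), PLXNC1 (-1.37), EPHA10 (-1.29), EPHA8 (-1.13), PLXNA2 (-1.08) and PLXNA3 (-1.06), and above 0 for EPHB4 (3.59), EPHB1 (3.21), UNC5B (2.01), NRP1 (1.73), UNC5A (1.36) and PLXND1 (1.03). All members below 0 had been called higher in cells at 6 days, and all above 0 except PLXND1 had been called lower there. This follows largely from the arithmetic, since the 6-day value is subtracted in the difference and the tumor values were small. Drug, schedule, starting level and library kit differ between the settings and cannot be told apart.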

How the results depend on the processing

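Of 161 called values recomputed under the alternatives (2895 values), 0 changed sign and 66 no longer passed both thresholds. At an FDR under 0.05 alone, without a fold threshold, members past it numbered 30 at 1 day (background 26.4% of genes), 44 at 3 days (45.0%), 58 at 6 days (75.1%), 41 at 3 days against 1 day (34.5%), 60 at 6 days against 3 days (68.1%), 7 in RA tumors (1.62%) and 60 in control tumors against DMSO cells (71.7%). In RA tumors, DESeq2 and the fit with no low-count filter each called 1 member (EPHA3). Leaving out 1 library at a time gave 3 to 4 members at 1 day, 9 to 12 at 3 days, 36 to 38 at 6 days, 8 to 10 at 3 days against 1 day, 29 to 31 at 6 days against 3 days, 0 to 3 in RA tumors, 36 to 39 in control tumors against DMSO cells and 31 to 35 for the difference of effects; the 3 in RA tumors came without control replicate 2. Among single members, calls of NTNG1 and SEMA3C, of UNC5D without DMSO replicate 2 (log2 fold change 0.88 at 6 days), of NTNG2, NEO1, SEMA7A, EFNB1, SEMA3B and PLXNB3 in control tumors, and of NRP1, PLXNA3, EFNB1 and SEMA4G between adjacent times were lost in at least 1 alternative, as were PLXND1, PLXNA2, PLXNA3, SEMA4B and UNC5D for the difference of effects. PLXND1 at 6 days, not called as reported, was called lower in 11 of 15 alternatives. Deviations of same-numbered libraries correlated between -0.025 and 0.012 in cells and between -0.334 and 0.108 in tumors. A shared replicate effect was thus not seen. Whether same-numbered libraries were handled together cannot be told from these values. With 2 libraries per group in cells, both replicate numbers give the same correlation. With a replicate block, the counts were 3, 10, 37, 10 and 30 in the cell comparisons in the order above and 0 in RA tumors, where control replicate 5 has no partner and was dropped. Groups of 2 libraries and low counts of the scarce members limit the cell results, and tumor spread limits the RA comparison.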
